A study of Mus musculus with 6 samples.

Results

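The DNA replication genes were 44 mouse genes that act in origin licensing, DNA unwinding, DNA synthesis and the supply and packaging of new DNA. They were taken by gene symbol from the platform annotation, and all 44 were found among the 24704 named genes on the array, each with 1 probe set. Expression was measured in whole lung tissue of mice kept in hypoxia for 7 days, on 6 single-colour Affymetrix arrays labelled with biotin. The 3 control mice (Nfat5fl/fl) carried floxed Nfat5 alleles and received the solvent miglyol, and the 3 EC knockout mice (Nfat5(EC)-/-) had lost Nfat5, an osmosensitive transcription factor, in endothelial cells after tamoxifen at 1 mg per day on 5 days. Genotype and tamoxifen therefore differed together, and their parts in any difference cannot be told apart. All mice were adults of either sex, aged 10 to 12 weeks at induction and used 2 to 3 weeks later. The sources used here do not name the Cre driver, the strain or the sex of each animal. The study design names 4 mice per group and states that lung preparations with other tissue in them, or with a poor expression response to hypoxia, had been left out, which selects the arrays partly by their expression.

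Before a cell copies its genome, the origin recognition complex marks start sites, and Cdc6 and Cdt1 load the ring-shaped MCM helicase there. In S phase Cdc45 and the GINS complex turn that ring into an active helicase, primase and polymerase alpha start each strand, and polymerases epsilon and delta extend it on the sliding clamp PCNA. Many of these genes are transcribed under E2F factors and are low in resting tissue. In adult lung few cells divide at rest, while hypoxia is known to make cells of the pulmonary vessel wall proliferate. In RNA from whole lung, fewer cells of a type and less RNA per cell cannot be told apart.

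The replication genes did not move as a block. Of the 44, 10 fell in the knockout lungs, 3 rose and 31 did not pass the threshold (adjusted p under 0.05, limma fitted over all 24704 genes). The 10 were Rrm1, Orc4, Rfc4, Orc5, Gins4, Prim1, Pola1, Pole, Orc2 and Mcm4, and the 3 were Pold1, Rfc5 and Pold2. Together these 13 calls compare with 25.5% of all genes called in either direction. The lower calls made up 22.7% of the replication genes, against 13.0% of all genes tested, and the higher calls 6.82%, against 12.5%. These shares of all genes include dim genes, which were called less often. With the dimmest 25% of genes dropped, 12 of 43 replication genes were lower (27.9%, against 17.8%) and 3 higher (6.98%, against 17%). All knockout arrays lay below all control arrays for 16 of the 44 (background 20.0% of genes) and above them for 6 (background 21.9%). The median log2 fold change was −0.17 over the replication genes and 0.04 over all genes, and 32 of the 44 had a negative value. The counts rested partly on single arrays: 4 genes were lower and 2 higher without control replicate 3 (6.04% and 5.63% of all genes), and 5 lower and 1 higher without control replicate 1 (6.54% and 6.18%), the array with high Xist. Without knockout replicate 1, 12 were lower (27.3%, against 12.1% of all genes) and 5 higher (11.4%, near the 12.3% of all genes).

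**Figure D1:**
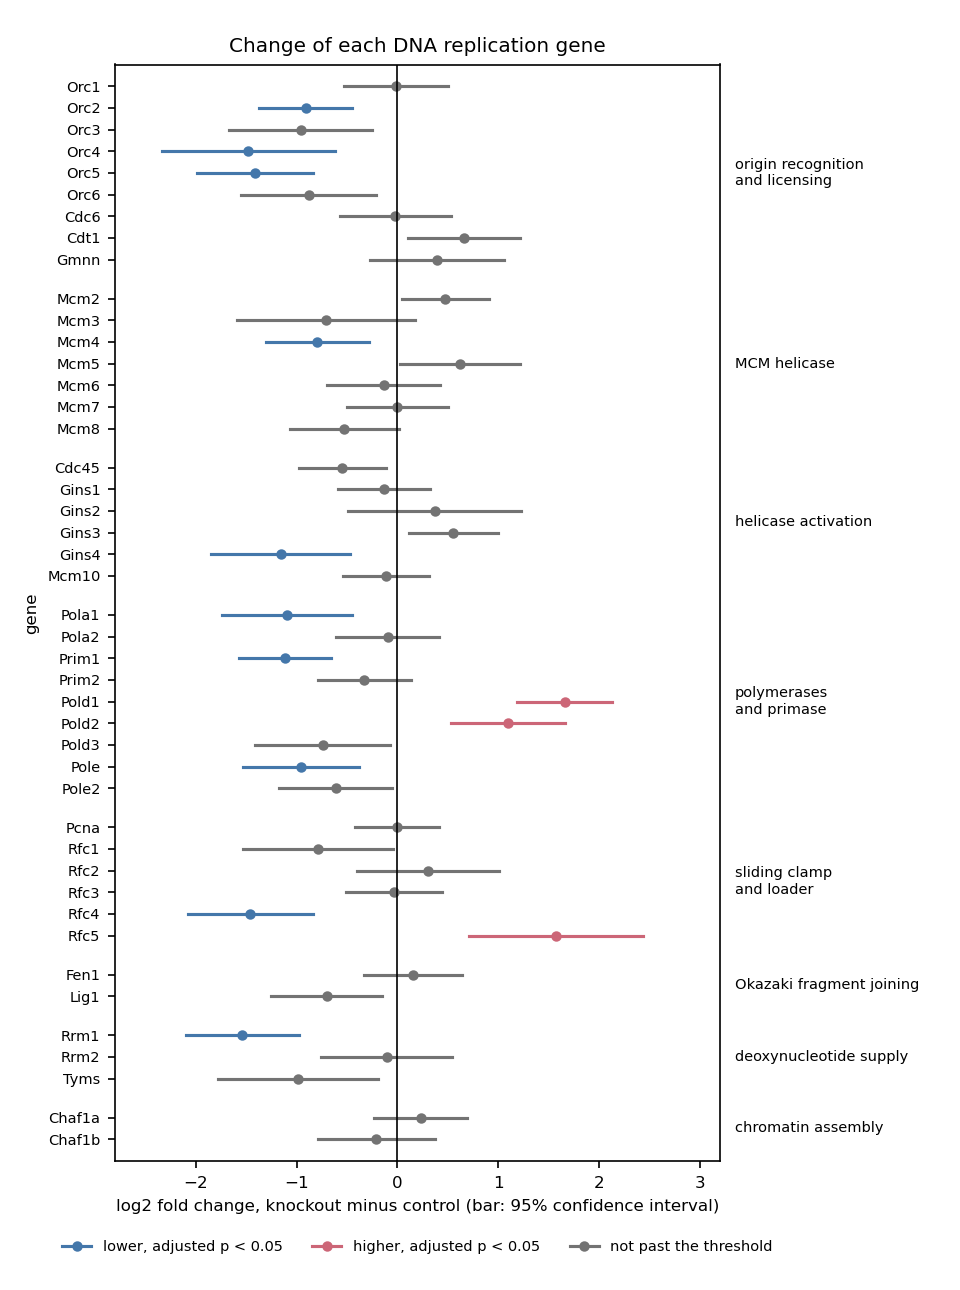
Each point is the log2 fold change of 1 gene, knockout minus control, with limma's 95% confidence interval, in 8 groups by role, from 3 arrays per group. Genes that fell run from Mcm4 at −0.80 to Rrm1 at −1.54, and the 3 that rose (Pold2, Rfc5, Pold1) from 1.10 to 1.66, so that polymerase and clamp loader genes appear on both sides of 0.

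In the library checks, Nfat5 was lower in every knockout array (3.89 to 4.48 on the log2 scale, against 6.30 to 6.65 in controls), which checks the labels only if its probes cover the deleted part. Xist, expressed in females, read 8.22 on control replicate 1 and 2.03 to 2.37 on the remaining 5 arrays. The Y-linked Kdm5d read 1.57 on control replicate 1, 4.02 and 3.94 on the other controls and 1.96 to 2.16 in knockouts, and Uty read 2.22, 4.90 and 4.48 in controls and 2.05, 3.29 and 4.30 in knockouts. Xist and Kdm5d were thus both low in all 3 knockouts, so these genes did not settle the sex of those mice, and its part in the results was not tested. Every array had the same distribution of values, with a lower quartile of 2.02. There were no detection calls, and 7 of the 44 genes lay under that quartile on at least 1 array, 0 of them on all 6. Nothing in the labels names separate cultures or litters, so the p-values measure the spread between these arrays.

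The genes of origin recognition, which start the whole process, held 3 of the falls. Orc2 (Entrez gene 18393), a core subunit of the origin recognition complex, stood at 4.54, 4.34 and 4.30 in control replicates 1, 3 and 4 and at 3.74, 3.48 and 3.22 in knockout replicates 1, 3 and 4. Orc4 (26428), which helps form its ATP-binding ring, stood at 5.18, 4.82 and 4.52 in controls and at 3.10, 2.71 and 4.28 in knockouts. Orc5 (26429), another subunit of that ring, stood at 4.15, 4.03 and 3.94 in controls and at 2.09, 2.82 and 2.97 in knockouts. None of the 3 genes had overlapping groups, though for Orc4 knockout replicate 4 (4.28) came close to the lowest control (4.52).

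Orc2 fell by 0.91 ± 0.20 log2 units (SE, n = 3 per group; adjusted p = 0.013). Orc4 fell by 1.48 ± 0.38 (adjusted p = 0.022) and Orc5 by 1.41 ± 0.25 (adjusted p = 0.0056), a 2.66-fold difference. The calls of Orc2 and Orc4 were lost without control replicate 1 and without control replicate 3, and that of Orc4 also without knockout replicate 1 or 3, whereas Orc5 passed in all 14 alternative fits. Orc3 and Orc6 did not pass, at −0.96 ± 0.31 (adjusted p = 0.053) and −0.88 ± 0.30 (adjusted p = 0.058), and in each the knockouts lay below all controls. Orc3 read 6.0, 5.68 and 4.98 in controls and 4.73, 4.09 and 4.95 in knockouts, so that control replicate 4 and knockout replicate 4 nearly met. Orc1, the subunit most tied to the cell cycle, had a log2 fold change of −0.02 with a 95% interval of −0.53 to 0.50.

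The licensing factors downstream of the complex gave no call. Cdc6, which joins the origin complex to load the helicase, stood at −0.02 (95% interval −0.57 to 0.53). Cdt1, its partner in loading, was measured at 3.43, 3.31 and 3.26 in controls and 3.56, 4.44 and 3.99 in knockouts. All 3 knockouts of Cdt1 were thus above the controls, at a log2 fold change of 0.66 ± 0.24 (adjusted p = 0.079). Geminin (Gmnn), which binds Cdt1 to stop a second round of licensing, stood at 0.40 (95% interval −0.27 to 1.06).

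Among the subunits of the MCM helicase, Mcm4 alone passed. Mcm4 (17217) stood at 4.51, 4.71 and 4.56 in controls and at 3.96, 4.05 and 3.38 in knockouts, with no overlap. It fell by 0.80 ± 0.23 log2 units (adjusted p = 0.031), a call lost without any 1 of control replicates 1, 3 and 4 or knockout replicate 4. The other subunits of the ring lay on both sides of 0. Mcm2, at 4.31, 4.33 and 4.50 in controls and 4.70, 5.06 and 4.81 in knockouts, had all knockouts above all controls, but its log2 fold change of 0.48 ± 0.19 did not pass (adjusted p = 0.10). Mcm5 read 3.88, 4.14 and 3.95 in controls and 4.08, 4.68 and 5.07 in knockouts, where replicate 1 fell inside the control range, and stood at 0.62 ± 0.26 (adjusted p = 0.12). Mcm6 stood at −0.14 and Mcm7 at −0.0011, with a 95% interval of −0.50 to 0.50. Mcm3 varied most within the knockouts, which read 2.81, 4.54 and 3.46, against 4.04, 4.44 and 4.46 in controls, and stood at −0.71 (adjusted p = 0.22). Mcm8, which works in repair by recombination rather than in the ring, was under the lower quartile of 2.02 on 4 of 6 arrays and stood at −0.53 (adjusted p = 0.14).

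The factors that activate the helicase gave 1 call, in a GINS subunit. Gins4 (109145) stood at 4.40, 4.24 and 3.87 in controls and at 2.33, 3.46 and 3.24 in knockouts, so the groups did not overlap and knockout replicate 1 was lowest. It fell by 1.16 ± 0.31 log2 units (adjusted p = 0.024), but did not pass without control replicate 1 or without control replicate 3. Of its partners in the same complex, Gins3 read 3.03, 3.31 and 3.36 in controls and 3.97, 3.65 and 3.75 in knockouts, all above the controls, at a log2 fold change of 0.55 ± 0.20 that did not pass (adjusted p = 0.068). Gins1 stood at −0.13 and Gins2 at 0.37, the latter with knockouts at 4.31, 2.63 and 3.33. Cdc45, which joins GINS on the ring, stood at −0.55 ± 0.19 (adjusted p = 0.065), with knockouts of 2.49, 2.59 and 2.84 below controls of 3.25, 3.07 and 3.25. Mcm10, which helps switch the helicase on, stood at −0.11 (95% interval −0.54 to 0.31).

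The polymerase genes held calls in both directions, split by enzyme. Pold1 (18971), the catalytic subunit of polymerase delta, which copies the lagging strand, stood at 3.57, 3.72 and 3.61 in controls and at 5.03, 5.23 and 5.60 in knockouts. Pold2 (18972), its accessory subunit, stood at 3.57, 3.72 and 3.85 in controls and at 4.81, 4.36 and 5.26 in knockouts. In both, every knockout array was above every control array. Pold1 rose by 1.66 ± 0.21 log2 units, or 3.16-fold (adjusted p = 0.0022), the smallest p among the 44 genes, and passed in all 14 alternative fits. Pold2 rose by 1.10 ± 0.25 (adjusted p = 0.014), and its call was lost without control replicate 1 or 3. A further subunit of the same enzyme, Pold3, had a negative value that did not pass, at −0.74 ± 0.30 (adjusted p = 0.10), with controls at 4.80, 4.94 and 4.96, knockout replicate 1 at 4.87 inside their range and the other knockouts at 3.86 and 3.74.

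The enzymes that start strands and the leading-strand polymerase went the other way. Prim1 (19075), the catalytic subunit of primase, stood at 3.27, 3.32 and 3.31 in controls and at 1.88, 2.33 and 2.35 in knockouts. Pola1 (18968), the catalytic subunit of polymerase alpha, stood at 3.53, 3.74 and 3.06 in controls and at 1.83, 2.44 and 2.76 in knockouts. Pole (18973), the catalytic subunit of polymerase epsilon, stood at 2.91, 3.37 and 3.67 in controls and at 2.69, 2.14 and 2.23 in knockouts. None of the groups overlapped, with a wide gap for Prim1 and a narrow one for Pole, between 2.69 and 2.91.

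Prim1 fell by 1.11 ± 0.20 log2 units (adjusted p = 0.0057) and passed in all 13 alternative fits that measured it. Pola1 fell by 1.10 ± 0.28 (adjusted p = 0.022) and Pole by 0.96 ± 0.25 (adjusted p = 0.024). Pola1 lost its call without control replicate 1 or 3, and Pole without control replicate 3 or 4 or knockout replicate 3 or 4. With the trend in gene length removed, neither passed (adjusted p = 0.080 for Pola1 and 0.074 for Pole). Knockout replicate 1 was under the lower quartile of 2.02 for both Prim1 and Pola1 and may lie near background, which leaves the sizes of both falls uncertain. The non-catalytic partners did not pass, with Pola2 at −0.10 (95% interval −0.61 to 0.41), Prim2 at −0.33 (−0.79 to 0.13) and Pole2 at −0.61 (−1.17 to −0.05; adjusted p = 0.10). Pola2 read 4.20, 4.29 and 4.17 in controls and 3.80, 4.05 and 4.52 in knockouts, on both sides of the controls.

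**Figure D2:**
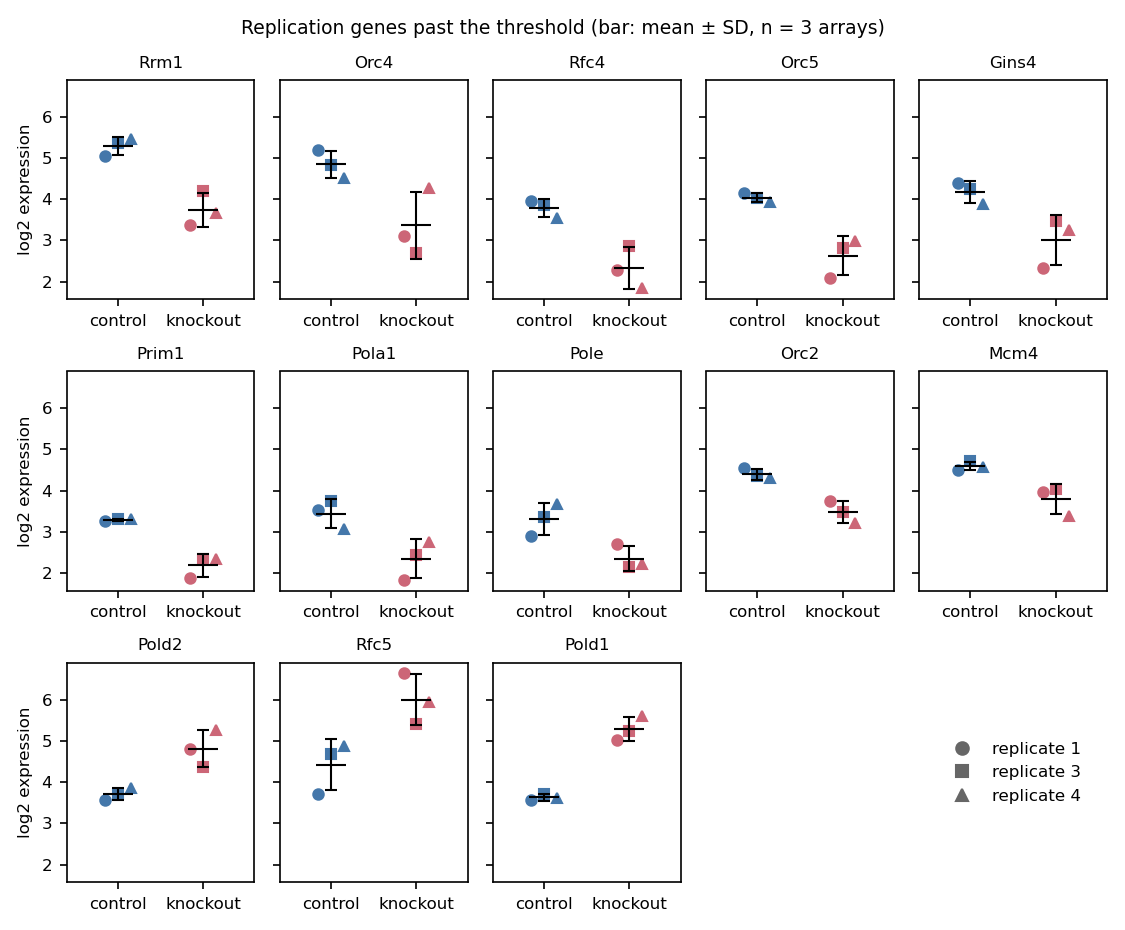
Log2 expression of the 13 replication genes past the threshold in each of 3 control and 3 knockout arrays, with marker shapes for the replicate numbers and bars for the mean ± SD. In every panel the knockout points lie wholly below or wholly above the controls, closest for Orc4 and Pole, and the spread is often wider among the knockouts.

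The clamp loader, a ring of 5 related subunits that opens PCNA and sets it on DNA, held the sharpest contrast within 1 complex. Rfc4 (106344) stood at 3.95, 3.86 and 3.55 in controls and at 2.28, 2.86 and 1.83 in knockouts. Rfc5 (72151) stood at 3.71, 4.68 and 4.88 in controls and at 6.64, 5.40 and 5.95 in knockouts. The groups overlapped in neither gene, and the 2 subunits moved in opposite directions in every knockout array. Rfc4 fell by 1.46 ± 0.27 log2 units (adjusted p = 0.0065), passing in all 14 alternative fits, and knockout replicate 4 read below 2.02. Rfc5 rose by 1.57 ± 0.38 (adjusted p = 0.017), a call that was lost without control replicate 1, its lowest array.

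The other loader subunits did not pass. Rfc1, the large subunit, stood at −0.79 ± 0.33 (adjusted p = 0.12) with knockouts of 2.74, 3.76 and 4.09 below controls of 4.21, 4.54 and 4.20. Rfc2 stood at 0.30, with controls at 4.45, 4.39 and 4.42, knockout replicates 1 and 4 (5.05 and 5.16) above the controls and replicate 3 (3.95) below them, and Rfc3 at −0.04. The clamp itself, Pcna (18538), was measured at 7.47, 7.60 and 7.57 in controls and at 7.41, 7.71 and 7.51 in knockouts. These values overlapped, and the 95% interval of its log2 fold change ran from −0.42 to 0.41.

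Okazaki fragment joining gave no call. Fen1, the nuclease that trims the flap between fragments, read 1.76, 2.36 and 2.14 in controls and 2.35, 2.29 and 2.09 in knockouts, overlapping, at 0.16 (95% interval −0.33 to 0.64). Lig1, the ligase that seals them, stood at −0.70 ± 0.24 (adjusted p = 0.063), with all knockouts (3.26, 2.86 and 2.51) below all controls (3.32, 3.65 and 3.77).

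The supply of deoxynucleotides showed the largest fall of all 44 genes. Rrm1 (20133), the large subunit of ribonucleotide reductase, stood at 5.04, 5.36 and 5.45 in controls and at 3.38, 4.19 and 3.66 in knockouts. All knockouts lay well below the controls, and Rrm1 fell by 1.54 ± 0.25 log2 units, or 2.90-fold (adjusted p = 0.0038), passing in all 14 alternative fits. Rrm2, the small subunit that limits the enzyme's activity in S phase, read 4.37, 4.58 and 4.32 in controls and 4.83, 4.42 and 3.69 in knockouts. Its groups overlapped, at a log2 fold change of −0.11 (95% interval −0.76 to 0.54). Tyms, which makes thymidylate, stood at −0.98 ± 0.35 and did not pass (adjusted p = 0.070). Its knockouts read 2.76, 3.77 and 4.28, below controls of 4.74, 4.63 and 4.39.

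Chromatin assembly factor 1, which sets histones on newly made DNA, gave no call. Chaf1a, its large subunit, read 2.94, 3.26 and 3.13 in controls and 3.08, 3.48 and 3.46 in knockouts, at a log2 fold change of 0.23 (95% interval −0.23 to 0.69). Chaf1b read 3.54, 4.12 and 4.38 in controls and 3.68, 4.10 and 3.63 in knockouts, at −0.21 (95% interval −0.79 to 0.38). The groups overlapped in both.

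**Figure D3:**
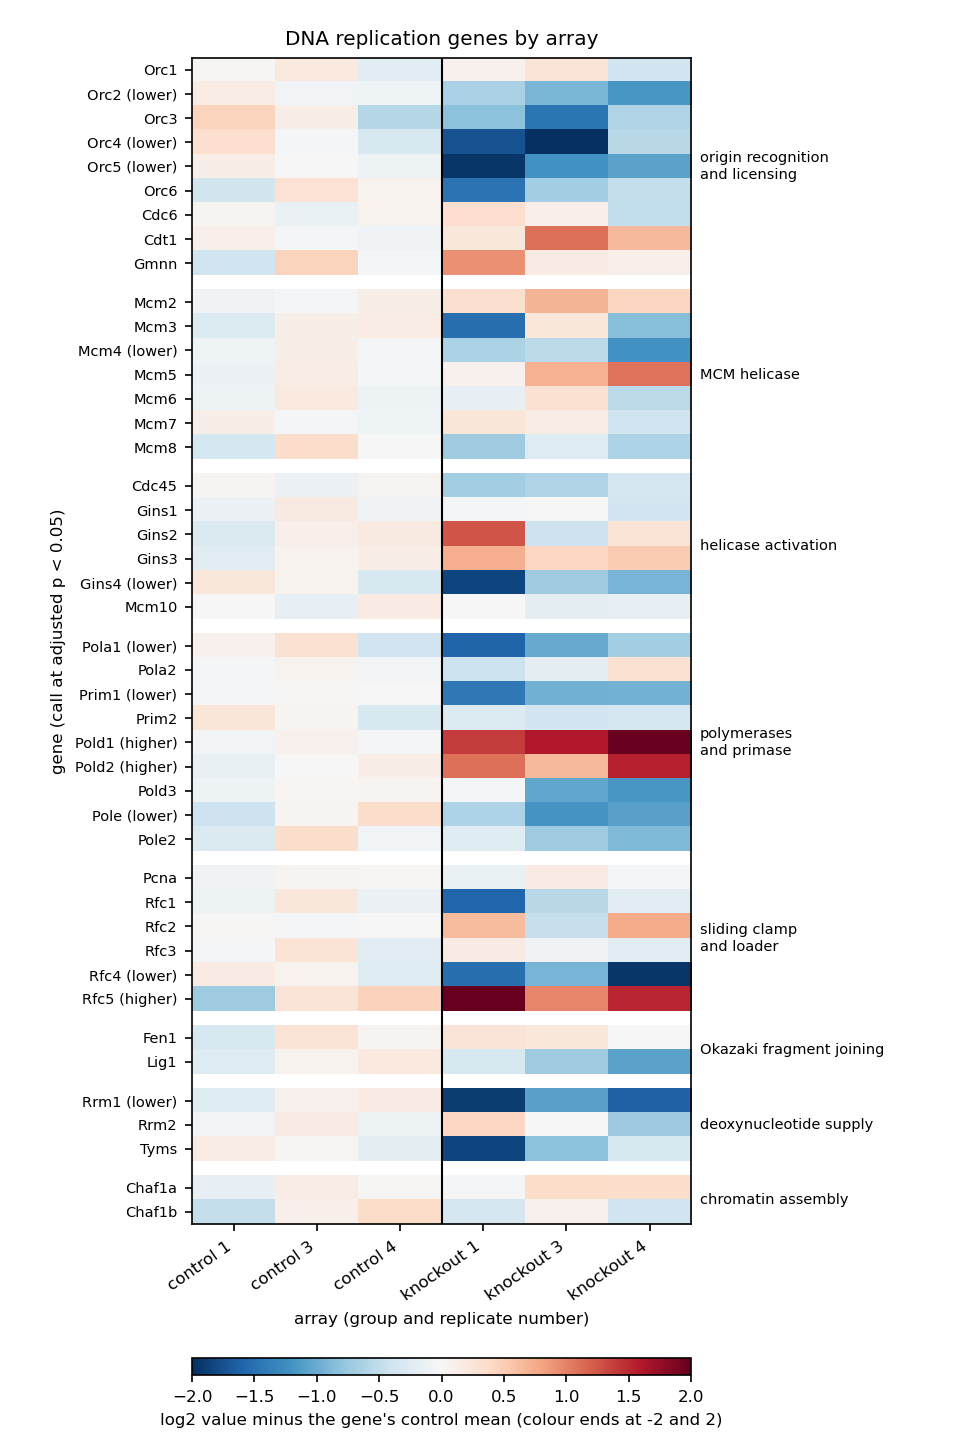
Each row is a replication gene, grouped by role, and each column an array, coloured by its log2 value minus that gene's control mean (colour ends at −2 and 2). The falls of Rrm1, Orc5, Rfc4 and Prim1 and the rises of Pold1, Pold2 and Rfc5 appear in all 3 knockout columns, while genes such as Mcm3, Gins2 and Rfc2 differ between knockout arrays.

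The spread within the group was wider among the knockouts than among the controls. Over the 44 genes the median SD was 0.18 in controls and 0.40 in knockouts, and the SD was larger in knockouts for 34 of 44 genes (77.3%), against 67.0% of all genes. The median distance from the control mean was −0.20, −0.22 and −0.39 in knockout replicates 1, 3 and 4, while over all genes it was 0.02 to 0.04. The median log2 fold change of the 44 genes was negative whichever array was left out, from −0.33 to −0.18. Knockout replicate 1 was the lowest of its group for 18 of the 44 genes and the highest for 16, and replicate 4 the lowest for 16 and the highest for 14.

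Promoters were read for sequence that the genes share. RefSeq (GRCm38.p6) gave promoters for 36 of the 44 genes, and the 250 bases before each start were searched on both strands for the E2F forms TTTCCCGC, TTTGGCGC, TTTCGCGC and TTTGCCGC, which can overlap. Any of the 4 forms was present in 9 of the 36 (25%), against 2.16% of 27025 genes with promoters. The median GC content was 60.5% over those of the 36 genes and 52.4% over all promoters. Of the 9, Pola1 passed the threshold, lower, and the other 8 (Cdc6, Gins3, Mcm5, Mcm6, Mcm7, Orc1, Orc3 and Rfc3) did not pass. For Pola1, Cdc6, Mcm7 and Orc1 the start used lies inside the annotated gene, and so does the match. Of the 27 without a match, 6 were lower, 3 higher and 18 not called. Matches are descriptions of letters, not of binding.

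The following windows around E2F matches (in capitals) are given for 4 helicase and origin genes that did not pass, to show the matches in place. Their likeness follows from the search itself, and Orc3, Cdc6, Gins3 and Rfc3, which also matched, are not shown. The windows come from chr8:75109340-75109383, plus strand, for Mcm5, chr1:128359729-128359831, minus strand, for Mcm6, chr5:138172025-138172064, minus strand, for Mcm7 and chr4:108579411-108579450, plus strand, for Orc1. Those of Mcm5 and Mcm6 lie upstream of the annotated gene. Those of Mcm7 and Orc1 lie inside it, past first bases at chr5:138172111 and chr4:108575705. In Mcm5 and Mcm6 forms on opposite strands overlap into 1 longer site.
Mcm5: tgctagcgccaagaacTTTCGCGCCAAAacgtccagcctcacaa
Mcm6: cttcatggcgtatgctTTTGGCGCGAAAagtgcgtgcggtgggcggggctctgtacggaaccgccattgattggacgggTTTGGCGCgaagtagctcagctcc
Mcm7: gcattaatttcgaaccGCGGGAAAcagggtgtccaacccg
Orc1: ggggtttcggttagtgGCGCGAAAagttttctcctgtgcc

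Pola1 was the one gene past the threshold with an E2F form among the promoters searched, which did not include those of Mcm4, Gins4 and Pole, and its 250 bases before the start are given with those of Prim1, its partner in strand initiation, Rrm1, which had the largest fall, and Pold2, which rose. The last 3 were chosen after their values were seen. Only the exact E2F forms were counted. TTCCCGC, which is TTTCCCGC without its first T, also stands in the Pola1, Prim1 and Rrm1 sequences, where it is not capitalised. Capitals mark the E2F forms and CCAAT (the box bound by NF-Y, ATTGG on the other strand) and, in Rrm1, TGGAAA, a core of NFAT sites. The regions are chrX:93632156-93632405, minus strand, for Pola1, chr10:128014965-128015214, plus strand, for Prim1, chr7:102441445-102441694, plus strand, for Rrm1 and chr11:5878257-5878506, minus strand, for the first of 2 starts of Pold2.
Pola1: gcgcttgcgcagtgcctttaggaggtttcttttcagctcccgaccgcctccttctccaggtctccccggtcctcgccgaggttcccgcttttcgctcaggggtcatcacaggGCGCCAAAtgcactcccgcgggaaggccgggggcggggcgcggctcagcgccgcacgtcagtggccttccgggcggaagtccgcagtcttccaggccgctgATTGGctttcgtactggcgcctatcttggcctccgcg
Prim1: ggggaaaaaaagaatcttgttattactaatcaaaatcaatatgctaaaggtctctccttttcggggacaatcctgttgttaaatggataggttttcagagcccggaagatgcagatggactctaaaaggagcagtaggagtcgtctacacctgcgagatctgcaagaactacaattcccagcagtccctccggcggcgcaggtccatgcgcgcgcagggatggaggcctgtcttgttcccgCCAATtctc
Rrm1: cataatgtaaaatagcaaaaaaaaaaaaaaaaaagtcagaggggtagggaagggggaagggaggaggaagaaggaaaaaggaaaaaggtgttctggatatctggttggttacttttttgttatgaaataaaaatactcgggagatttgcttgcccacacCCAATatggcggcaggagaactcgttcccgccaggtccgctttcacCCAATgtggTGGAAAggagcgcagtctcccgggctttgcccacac
Pold2: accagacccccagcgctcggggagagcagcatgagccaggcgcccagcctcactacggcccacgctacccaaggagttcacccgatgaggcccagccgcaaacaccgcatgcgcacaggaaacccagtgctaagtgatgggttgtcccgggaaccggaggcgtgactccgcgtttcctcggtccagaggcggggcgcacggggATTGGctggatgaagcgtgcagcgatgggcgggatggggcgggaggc

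The E2F match of Pola1 begins 138 bases before the start used here and its CCAAT box 37. That start lies inside the annotated gene, whose first base on the minus strand is chrX:93632387. Both matches therefore lie within the gene and not upstream of it. Rrm1 has CCAAT boxes 91 and 45 bases before the start and TGGAAA at 36, Prim1 has a CCAAT box 9 bases before it, and Pold2 one at 47. CCAAT was present in 22 of the 36 genes (61.1%), against 37.5% of all genes with promoters, among them 5 lower, 1 higher and 16 not called. TGGAAA was present in 7 (19.4%), against 20.9%, of which Orc5 and Rrm1 fell and 5 did not pass. TTTGAA, the cell cycle element of late cell cycle genes, was present in 5 (13.9%), against 18.3%, of which Pold2 rose and 4 did not pass. A gene was counted if any of its starts matched. The TTTGAA of Pold2 lies before its other start and not in the sequence printed above.

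Gene length moved with the calls. The span from the first to the last base of the gene in GRCm38.p6 had a median of 35.2 kb among the 10 lower genes and 9.88 kb among the 3 higher ones, and of 21.7 kb among those not called. Over all protein-coding genes the medians were 48.4 kb for lower, 11.8 kb for higher and 16.3 kb for those not called. Of the 10 replication genes under 10 kb, 0 were lower and 2 higher (3.33% and 17.1% of all protein-coding genes of that span). Of the 32 between 10 and 100 kb, 9 were lower and 1 higher (18.9% and 12.7% of all). With the average length trend taken out of each array, 9 of the 44 were lower (20.5%, against 13.2% of protein-coding genes). The higher calls numbered 3 (6.82%, against 12.9%). Among these calls were 8 of the original 10 and all 3 risers, and Orc6 was called in place of Pola1 and Pole.

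**Figure D4:**
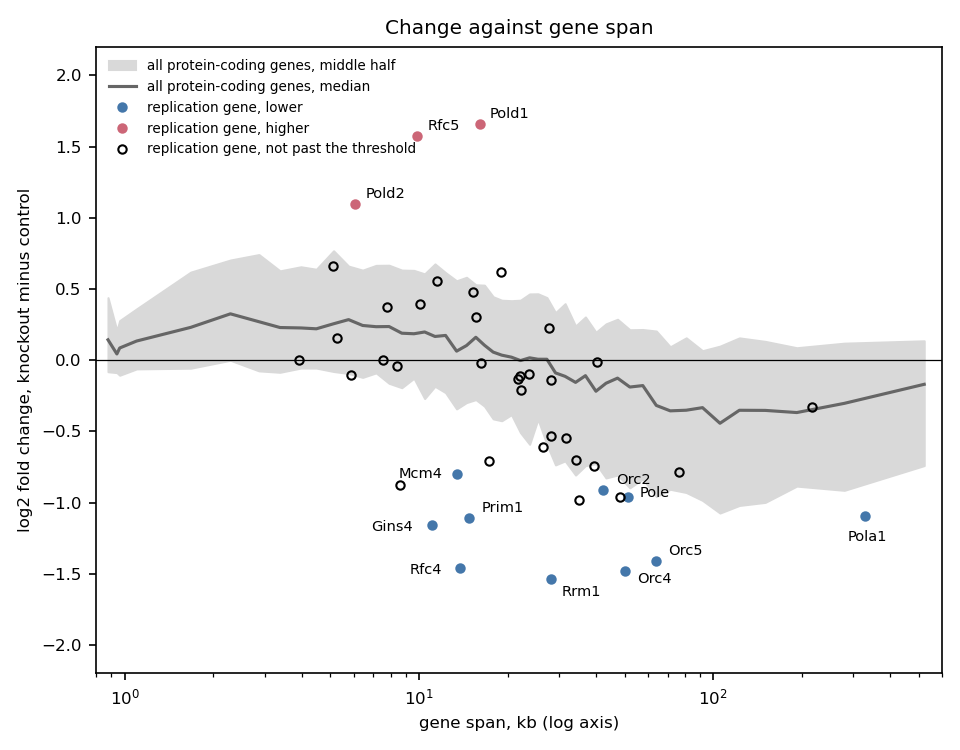
Log2 fold change, knockout minus control, against gene span in kb (log axis) for the 44 replication genes, with the median and the middle 50% of protein-coding genes in bins of span behind them. The median over all protein-coding genes lies above 0 at short spans and below 0 at long ones, and Mcm4, Gins4, Prim1 and Rfc4 lie below that band at spans of 11.1 to 14.8 kb.

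Other genes of the replication machinery also moved both ways. Of 37 measured, 8 fell (21.6%, against 13.0% of all genes) and 3 rose (8.11%, against 12.5%), and their median log2 fold change was −0.31. Dropping the dimmest 25% of genes put the shares of the rest at 17.8% lower and 17% higher, though this list was not counted again in that fit. Mtbp, which helps fire origins, fell by 1.53 ± 0.23, Topbp1, its scaffold, by 1.38 ± 0.29, Ticrr, their partner, by 0.72 ± 0.19 and the origin-firing kinase Cdc7 by 0.79 ± 0.23 log2 units (SE, n = 3 per group). The topoisomerases Top2a and Top1, which relieve twisted DNA, fell by 1.90 ± 0.27 and 1.16 ± 0.24. Wdhd1, which ties polymerase alpha to the helicase, fell by 0.81 ± 0.22, and Samhd1, which breaks down deoxynucleotides, by 1.01 ± 0.22. Those that rose were Rnaseh2c (1.19 ± 0.19) and Rnaseh2a (0.71 ± 0.19), subunits of the nuclease that removes ribonucleotides from DNA, and thymidine kinase Tk1 (1.00 ± 0.27). Their adjusted p lay between 0.0027 and 0.036.

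Of 30 genes that control entry into S phase, 11 fell (36.7%, against 13.0% of all genes) and 4 rose (13.3%, near the 12.5% of all genes), and their median log2 fold change was −0.37. None of the 30 read below 2.02 on any array, so the share of all genes, dim ones included, is a low bar. With the dimmest 25% of genes dropped, 17.8% of the rest were lower and 17% higher. The list was not counted again in that fit, and gene length was not matched. The activators E2f1 and E2f2 rose by 1.05 ± 0.19 and 1.19 ± 0.19 log2 units, while the activator E2f3 fell by 0.98 ± 0.19 and the repressors E2f6 and E2f8 fell by 1.15 ± 0.23 and 0.82 ± 0.20. All 3 pocket proteins, which hold E2F factors in check, fell, Rb1 by 2.47 ± 0.47, Rbl1 by 1.16 ± 0.24 and Rbl2 by 0.91 ± 0.21. The S phase cyclin Ccna2 fell by 1.58 ± 0.37, the G1 kinase Cdk6 by 1.20 ± 0.21, the E2F partner Tfdp2 by 1.32 ± 0.35 and the kinase inhibitor Cdkn2c by 0.99 ± 0.30, whereas the G1 cyclin Ccnd3 rose by 1.40 ± 0.19 and the inhibitor Cdkn1c by 0.71 ± 0.21. Mki67, a marker of cycling cells, read 6.72, 7.04 and 6.83 in controls and 5.11, 5.85 and 4.50 in knockouts, and fell by 1.71 ± 0.32. The cyclins E, Ccne1 at 0.29 and Ccne2 at −0.06, did not pass. The adjusted p of the 15 called genes lay between 0.0026 and 0.041.

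Markers of cell types that could carry replicating cells are given beside these counts, to be read against the 13.0% of all genes called lower and 12.5% called higher. For bright lists, such as the endothelial and lung epithelial ones, the shares among genes above the median level are closer in kind. Those were 23.5% lower and 23.3% higher. Of 7 alveolar macrophage markers measured, 3 were lower (42.9%) and 0 higher. Fabp4 fell by 2.43 and Mrc1 by 1.47 log2 units, whereas Marco stood at 0.39 and Itgax at 0.06 and did not pass. Fabp4 varied widely in controls, at 7.79, 6.67 and 5.86, against 4.06, 4.74 and 4.24 in knockouts. Whether these markers are also expressed in other lung cells was not tested. The summed linear level ran from 338.2 to 602.9 in controls and from 113.7 to 236.5 in knockouts, and in controls it was carried mostly by the bright genes Chil3 (mean 7.64 in controls) and Fabp4 (6.78). Of 10 endothelial markers 5 were lower (50%) and 4 higher (40%), with sums of 3186 to 3896 and 2273 to 2373. In controls these sums were carried mostly by Cdh5 (mean 10.65) and Pecam1 (9.48), so they do not stand for the list. Cdh5 and Pecam1 fell, as did Tek, Erg and Emcn, whereas Vwf, Cldn5, Egfl7 and Eng rose and Kdr did not pass. Of 12 thymus markers 1 was lower and 1 higher (8.33% each way), with overlapping sums (80.2 to 110.7 and 88.7 to 115.6), and 5 of the 12 read below 2.02 on at least 1 array. T cell markers were lower at 1 and higher at 1 of 6 (16.7% each way, sums of 88.6 to 159.1 and 153.0 to 208.8), and B cell markers were higher at 1 of 4 (25%, sums of 86.0 to 131.1 and 81.3 to 142.8). Erythroid precursor markers were lower at 1 of 4 (25%, sums of 37.6 to 40.3 and 26.0 to 33.0) and lung epithelial markers, which mark the labelled tissue, lower at 3 of 8 (37.5%, sums of 15290 to 16710 and 9310 to 14430). In controls the epithelial sums were carried mostly by Scgb1a1 (mean 12.53) and Sftpc (12.20), and neither gene passed. Of the 8, 7 had a negative value, and Ager, at 0.64, had all knockouts above all controls but did not pass. The part of these cell types in the replication gene results was not tested.

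**Figure D5:**
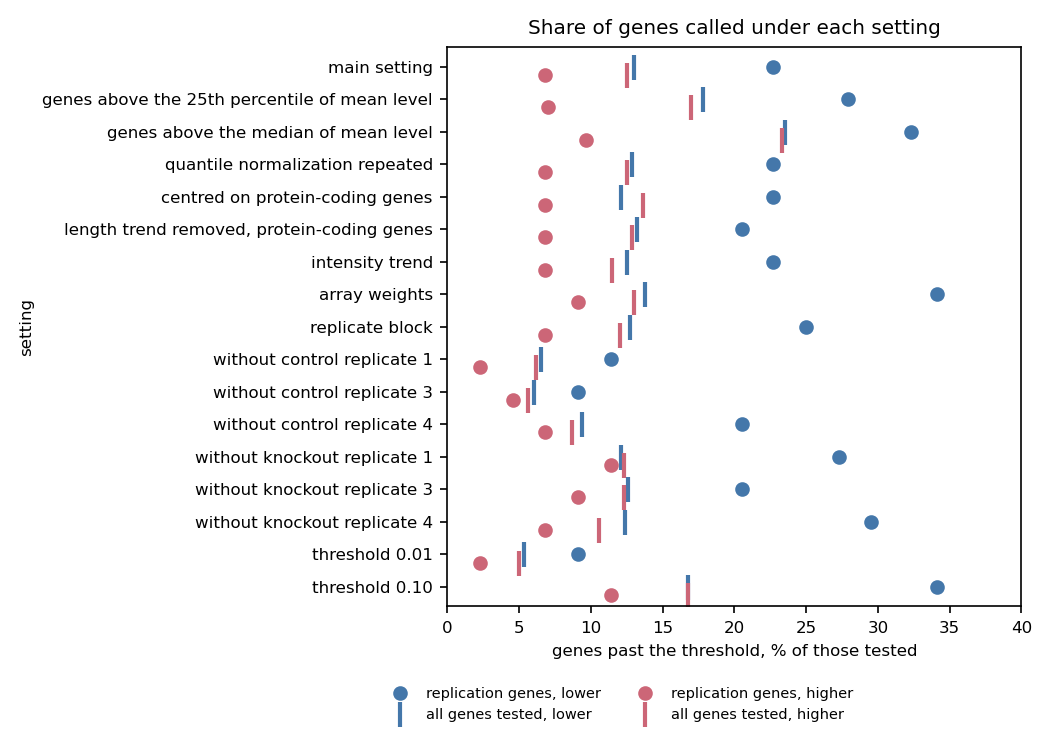
Percentage of the replication genes (points) and of all genes tested (bars) called lower or higher in the knockout under each setting of the analysis. The share of replication genes called lower is above that of all genes in every setting shown, running from 9.09% to 34.1%, and the share called higher is below it in every setting shown.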

How the data were processed

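The authors deposited 1 log2 value per probe set and array, and the submitters' processing notes name RMA as the method. The sources used here give no RMA version, probe set definition or genome build. All columns share their quantiles (largest difference 0.00183). Of 25428 probe sets, 24705 had 1 gene symbol, 0 several and 723 none. For the 1 symbol with a second probe set the brighter was kept, which left 24704 genes, and no dim genes were filtered out. Entrez identifiers of 24672 genes matched the RefSeq table of GRCm38.p6, which gave gene spans.

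The groups were compared gene by gene in R 4.3.3 with lmFit and eBayes of limma 3.58.1. P-values were adjusted by the Benjamini-Hochberg method across the whole table, and the threshold was 0.05. The procedure was run on simulated data with the same SD per gene in both groups. It therefore did not cover the wider spread among the knockouts seen here. Fold changes are knockout minus control on the log2 scale, with moderated standard errors. Summed marker levels are sums of values taken back from log2. The number of arrays limits the precision. The members and lists were chosen with earlier results of these data known. All 44 members were described, with every array's value for those past the threshold and for the highest and lowest of the rest in each role, and other genes of the pathway by name where they passed. Alternatives covered dim genes, scaling, gene length (lowess, span 0.3), variance models, thresholds, the replicate numbers and leaving out each array.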

Additional observations from a re-analysis of the deposited data

How the results depend on the processing

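With 1 array left out, 4 to 13 replication genes were lower (9.09% to 29.5%, against 6.04% to 12.6% of all genes). Higher ones numbered 1 to 5 (2.27% to 11.4%, against 5.63% to 12.3%), with all genes called between 2882 and 6155. The lowest lower count of these fits came without control replicate 3 and the highest without knockout replicate 4. At a threshold of 0.01, 4 were lower (9.09%, against 5.36% of all genes) and 1 higher (2.27%, against 5%), with 2560 genes called in all. At 0.10, 15 were lower (34.1%, against 16.8% of all genes) and 5 higher (11.4%, against 16.8%), with 8290 genes called in all. The median over the replication genes was −0.29 with the length trend removed and ran from −0.33 to −0.18 when 1 array was left out. None of the 13 called genes changed sign in any alternative. As their groups did not overlap, leaving out 1 array could not have turned the sign, so this adds no support to the calls. Among genes near 0, the sign turned with repeated quantile normalization for Mcm7 (0.0027) and Pcna (0.0016). Centring on protein-coding genes turned Orc1 (0.028), Cdc6 (0.024), Mcm7 (0.043), Pcna (0.042) and Rfc3 (0.0050), array weights Orc1 (0.014), Cdc6 (0.0011), Mcm7 (0.018) and Pcna (0.036), and the length trend Orc1 (0.18), Prim2 (0.037) and Fen1 (−0.12). With 1 array left out, values ran from −0.13 to 0.19 for Mcm7, −0.086 to 0.065 for Pcna, −0.15 to 0.17 for Orc1, −0.20 to 0.22 for Cdc6, −0.15 to 0.096 for Rfc3, −0.0062 to 0.29 for Fen1, −0.072 to 0.77 for Gins2, −0.30 to 0.064 for Pola2, −0.36 to 0.069 for Mcm6 and −0.37 to 0.21 for Rrm2. The cause of these turns was not tested.

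With the replicate block, 11 genes were lower (25%, against 12.7% of all genes) and 3 higher (6.82%, against 12%), Orc6 being added. The deviations of arrays with the same number correlated at 0.06, −0.01 and 0.0038, so the numbers were not taken to pair the mice. Array weights gave 15 lower (34.1%, against 13.8% of all genes) and 4 higher (9.09%, against 13%). The filter at the median level dropped 13 of the 44 genes from the test. Of the 31 left, 10 were lower (32.3%, against 23.5% of genes tested) and 3 higher (9.68%, against 23.3%). Without detection calls, differences in genes read near 2.02 may have been missed.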
